A study of Mus musculus with 1824 samples.

Results

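Forkhead factors are transcription factors that bind DNA through a winged helix domain, and different family members mark different lineages of the gastrulating embryo. The 8 genes described here are *Foxa1*, *Foxa2*, *Foxj1*, *Foxc1*, *Foxc2*, *Foxf1*, *Foxd3* and *Foxb1*. They were found by their symbols, each of which matched 1 Ensembl identifier, and they are 8 of the 44 forkhead genes and of the 55487 genes in the count table. Their levels were followed over stages, plates and cell categories in 1634 of 1824 single cells, namely those with at least 100000 reads.

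The cells came from mouse chimaeras in which *Tet* triple-knockout embryonic stem cells, which lack all TET dioxygenases and carry a red nuclear reporter, develop beside cells of a C57BL/6J host embryo in a CD1 recipient. The E7.5 wells were 11 plates of 96, of which 4 carry the name of an embryo (1, 2, 4 and 5), 1 is a chimera plate and 6 are named by a sequencing lane (lane plates). The E8.5 wells were 8 plates of 96 with no animal named, so E8.5 counts as 1 sample and no test between stages is possible. All cells are labelled with strain CD1 and their stage. The labels of single cells give neither genotype nor sort gate, so a level below may come from knockout cells, host cells or both, in unknown shares. Plates and classes may differ in these shares, which cannot be told apart from other differences between them. The share of cells with a gene also depends on which cells were sorted.

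Forkhead factors of the FOXA group are pioneer factors, which can bind closed chromatin, and they are known for foregut, node and floor plate development. FOXJ1 directs the programme of motile cilia, which in this embryo are first built on the node. FOXC1 and FOXC2 act in paraxial and head mesoderm and in vessels, and FOXF1 acts in lateral and extraembryonic mesoderm. FOXD3 maintains pluripotent cells of the epiblast and later specifies neural crest, and FOXB1 is a marker of the early neural tube.

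*Foxa1* and *Foxa2* are paralogues that lie on different chromosomes, and their upstream sequences are shown because both genes were detected in many of the same cells. The RefSeq table of promoters for GRCm38.p6 held *Foxa1*, *Foxa2*, *Foxc1* and *Foxd3*. The *Foxa1* window is chr12:57546122-57546361 on the minus strand, 240 bases that lie in the first intron of the longest annotated transcript, directly upstream of a start used by a shorter one. The *Foxa2* window is chr2:148046970-148047219 on the minus strand, the 250 bases directly upstream of the gene and the outermost of the starts listed for it. Both are written 5′ to 3′ on the strand of the gene, and capitals mark matches on either strand to TGTTTAC, a core forkhead motif, or to CCGCCC, a GC box.
Foxa1: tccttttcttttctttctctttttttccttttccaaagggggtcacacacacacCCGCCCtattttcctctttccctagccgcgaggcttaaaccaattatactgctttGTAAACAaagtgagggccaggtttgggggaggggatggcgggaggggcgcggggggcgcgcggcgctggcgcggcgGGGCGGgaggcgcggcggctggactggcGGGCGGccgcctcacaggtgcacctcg
Foxa2: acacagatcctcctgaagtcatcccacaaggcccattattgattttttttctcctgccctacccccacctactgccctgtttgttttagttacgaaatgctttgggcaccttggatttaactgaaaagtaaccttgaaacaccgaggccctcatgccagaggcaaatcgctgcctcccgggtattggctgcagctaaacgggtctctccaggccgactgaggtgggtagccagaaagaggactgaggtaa
In these windows *Foxa1* held 1 TGTTTAC, 3 CCGCCC and 21 CpG, and *Foxa2* held neither motif and 6 CpG. Neither window held TGTTTGC or TATAAA. The contrast depends on the start, since the windows of 2 further *Foxa2* starts in the table held 20 and 13 CpG, 2 and 1 CCGCCC, and in the second of them 1 TATAAA. Of 32851 RefSeq promoters, 3.17% held TGTTTAC, 4.30% TGTTTGC, 12.4% TATAAA and 32.7% CCGCCC in the 250 bases upstream, and the median promoter held 6 CpG. A match of letters is a description and not a binding site.

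The depth of the cells used ranged from 100941 to 6162793 reads with a median of 678018. E7.5 cells had a median of 742762 reads and E8.5 cells one of 575073, and lane plate 5 was the shallowest plate, with 57 cells used and a median of 224956 reads. Levels are given as CPM, the reads of a gene per 1000000 reads of all genes, summed over a group of cells, and shares of cells with a read are given after each cell was thinned at random to 100000 reads. Because the reads are amplified copies without molecular identifiers, all intervals (95%, exact) cover counting error only. In a sum of cells, fewer cells with a transcript and fewer transcripts per cell cannot be told apart from the level alone.

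Cells were sorted into 25 clusters without the forkhead genes. Of these, 22 took 1 of 14 class names from marker lists, and 3 stayed unnamed and are called by their leading genes. The unnamed clusters were led by *Cer1*, *Trh* and *Lama1* (47 cells, 46 of them E7.5, with the endoderm gene *Sox17* and the node gene *Noto* next in rank), by *Nanog*, *Fst* and *Pou5f1* (80 cells, all E7.5) and by *Lefty2*, *Pcdh19* and *Hoxb1* (41 cells, 17 on lane plate 5 and 22 on lane plate 6). Some names rest on thin ground. The primitive streak-like cluster matched 7 of 8 markers. Its first gene by fold was *Mesp1*, and both *Mesp1* and another of its leading genes, *Lefty2*, are on the nascent mesoderm list. Primitive streak was also the best match of 2 unnamed clusters. The one led by *Nanog*, *Fst* and *Pou5f1* matched 7 of its 8 markers and the one led by *Cer1*, *Trh* and *Lama1* 6. The surface ectoderm-like cluster matched 6 of 7 markers, but its first gene by fold was *Nepn*, a gene of the gut list, and the neural ectoderm-like cluster rested on 3 of 8 markers. Class and plate overlapped strongly, so plate values are given beside the class values and no class is tested against the rest.

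All 8 genes were sparse. After thinning, 53% of the 1634 cells had no read of any of them, 34% had reads of 1 and 9.49% of 2, while 48 cells had reads of 3, 8 of 4 and 1 of 5. *Foxf1* was the most widely detected, in 20.01% of cells, followed by *Foxc2* in 9.42%, *Foxa2* in 8.51%, *Foxb1* in 7.47%, *Foxc1* in 6.67%, *Foxa1* in 6.30%, *Foxj1* in 3.73% (61 cells) and *Foxd3* in 1.96% (32 cells). Erythroid-like cells served as the background, since none of the 8 genes is a known gene of red cells. In the erythroid-like cells, which came from clusters of 82, 64 and 62 cells and had a median depth of 882194 reads, thinned reads were found in 1 cell for *Foxc1* and 1 for *Foxf1* (0.481% each) and in 0 cells for the other 6, which allows a share of up to 1.44%. Pooled erythroid-like levels were 0.110 CPM for *Foxf1* and 0.0351 CPM or less for the other 7. Most erythroid-like cells lay on lane plate 1 (60) and E8.5 plates 1 (73) and 2 (68), so they do not measure the background of other plates. Another blood class, myeloid-like cells, had *Foxa1* at 2.44 CPM with a read in 3.85% of 26 cells at E7.5, and at 0 CPM at E8.5.

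**Figure D1:**
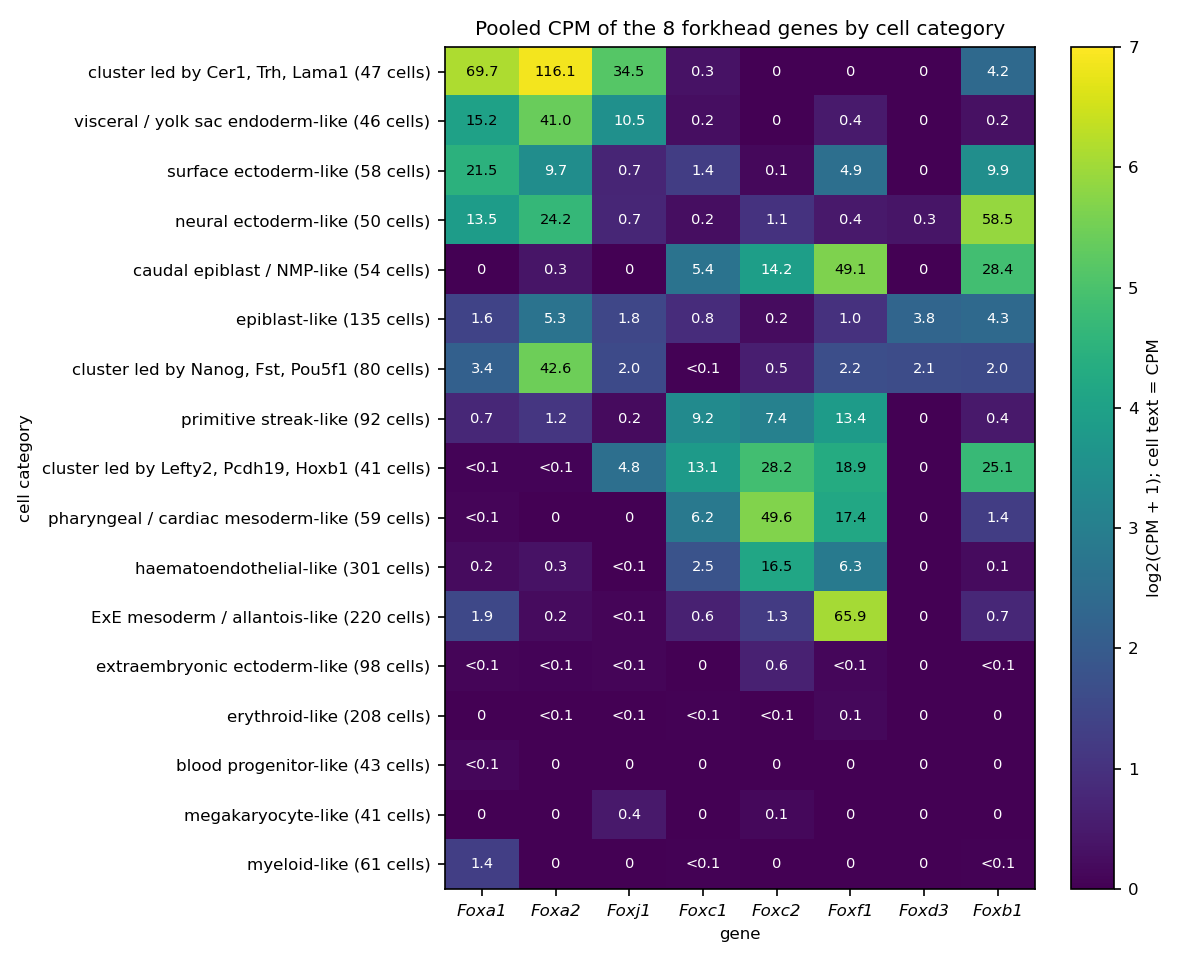
Pooled CPM of each gene (columns) in each cell category (rows, with the number of cells), coloured by log2(CPM + 1) and printed as CPM. *Foxa1*, *Foxa2* and *Foxj1* are brightest in the cluster led by *Cer1*, *Trh* and *Lama1* (69.7, 116.1 and 34.5 CPM), *Foxf1* in extraembryonic mesoderm or allantois-like cells (65.9 CPM), *Foxc2* in pharyngeal or cardiac mesoderm-like cells (49.6 CPM) and *Foxb1* in neural ectoderm-like cells (58.5 CPM).

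*Foxa1* (chr12:57540628-57546916, minus strand) was highest in the cluster led by *Cer1*, *Trh* and *Lama1*, at 69.7 CPM (66.9 to 72.6), with a read in 72.3% of its cells. Its level there was 23.4 CPM on the chimera plate, 54.3 in embryo 1, 121.05 in embryo 2, 25.2 on lane plate 5 and 66.7 on lane plate 6. All 5 plates were above the level of every other category pooled over both stages, and embryo 2 was the highest. At E7.5 alone, however, visceral or yolk sac endoderm-like cells were at 38.6 CPM, above the chimera plate and lane plate 5. Surface ectoderm-like cells followed at 21.5 CPM (20.1 to 22.9), with 18.8 CPM on E8.5 plate 7 and 7.98 on E8.5 plate 8, both under the pooled value because the 7 remaining cells lay on plates with fewer than 5. Visceral or yolk sac endoderm-like cells, which line the yolk sac and express *Afp*, *Apoa1* and *Ttr*, were at 15.2 CPM, and neural ectoderm-like cells at 13.5 CPM. In the neural class the plates lay close together, at 15.6 CPM on lane plate 4, 15.5 on E8.5 plate 7 and 11.6 on E8.5 plate 8. The surface ectoderm-like, visceral endoderm-like and neural levels lie within the range of the plate values, and their order is not resolved.

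In visceral or yolk sac endoderm-like cells *Foxa1* differed by stage. It was at 16.6 CPM in embryo 4 and 79.3 CPM in embryo 5, against 0.0445 CPM on E8.5 plate 1, the only E8.5 plate with at least 5 such cells. Over all cells of the class it was at 38.6 CPM with a read in 61.5% of 26 cells at E7.5, and at 0.117 CPM with a read in 5% of 20 cells at E8.5. *Foxa2* in the same cells was at 51.7 CPM at E7.5 and 34.2 CPM at E8.5. Because the E8.5 cells come mainly from 1 plate, stage and plate cannot be told apart here.

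*Foxa2* (chr2:148042877-148046969, minus strand), which is needed to form the node and the notochord, reached 116.1 CPM (112.4 to 119.8) in the cluster led by *Cer1*, *Trh* and *Lama1*, where 95.7% of cells had a read. The plates ran from 85.1 CPM on the chimera plate through 88.3 in embryo 1, 108.4 in embryo 2 and 143.8 on lane plate 6 to 186.4 on lane plate 5. The lowest of them was above the highest plate of any other category, 78.7 CPM in visceral or yolk sac endoderm-like cells of embryo 5. Next came the cluster led by *Nanog*, *Fst* and *Pou5f1*, at 42.6 CPM with a read in 31.3% of cells. It ranged from 12.4 CPM on lane plate 6 to 77.3 CPM on the chimera plate. Visceral or yolk sac endoderm-like cells were at 41 CPM with a read in 69.6% of cells, neural ectoderm-like cells at 24.2 CPM with a read in 20%, and surface ectoderm-like cells at 9.72 CPM.

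The FOXA paralogues marked overlapping sets of cells. Both were found in 68 cells, 66% of those with *Foxa1* and 48.9% of those with *Foxa2*, while 4.64% of the cells without *Foxa1* had a *Foxa2* read. Of the 68 cells, 33 were in the cluster led by *Cer1*, *Trh* and *Lama1* and 15 were visceral or yolk sac endoderm-like. *Foxa1* was at 34.2 CPM in cells with *Foxa2* and at 1.37 CPM in cells without. Per kilobase of merged exons, the level of *Foxa2* in the cluster led by *Cer1* was 49 CPM per kb and that of *Foxa1* 21 CPM per kb.

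Both genes were also compared with the secreted signals and factors of node, notochord and endoderm. Of 12 genes in that list, 10 were at least 2-fold higher (log2 ratio of at least 1) in cells with a *Foxa1* read than in the other 1531 cells, against 7.30% of all genes counted, and the same number in cells with *Foxa2*, against 9.25%. For either gene, 2 of the 10 were under 1 CPM in the other cells and were counted only through the cells in which they were high. Of the 10 list genes with at least 1 CPM in the other cells, 8 were higher for *Foxa1*, against 4.81% of all genes so counted, and 8 for *Foxa2*, against 6.46%. *Cer1*, an antagonist of Nodal and BMP signals, was at 640.3 CPM in cells with *Foxa2* and 4.54 CPM in cells without. *Chrd*, the BMP antagonist chordin, was at 23.9 and 1.66 CPM, and *Shh*, the ligand of the notochord and floor plate, at 14.3 and 0.485 CPM. The genes that missed the fold were the same for both, *T* and *Hhex*. *Hhex*, an endoderm factor also used in blood vessels, was at 45 CPM in cells with *Foxa2* and 42.4 CPM in cells without. These list genes took part in the clustering, and these ratios compare cells of the same embryos, so they are descriptions with no test.

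Among cells with a read of *Shh*, 28 in all, *Foxa1* was at 79.6 CPM and found in 67.9%, against 2.92 CPM and 5.23% in the others. The 14 *Shh* cells of E8.5 had *Foxa1* at 86.6 CPM (78.6% with a read) and the 14 of E7.5 at 74.4 CPM (57.1%). These are few cells, with no test. Beside the other markers compared *Foxa1* was lower at E8.5, at 40.8 and 15.7 CPM in cells with *Foxa2*, 18.2 and 0.279 CPM in cells with *Sox17* and 42.7 and 5.16 CPM in cells with *Ttr*.

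*Foxj1* (chr11:116330704-116335399, minus strand) had 2102 reads in all, and few cells held most of them. The 10 highest E7.5 cells held 70.7% of its E7.5 reads, and 1 cell reached 1260 CPM. In the cluster led by *Cer1*, *Trh* and *Lama1* it was at 34.5 CPM (32.5 to 36.6) with a read in 21.3% of cells. By plate it was 0 CPM on the chimera plate, 2.00 in embryo 1, 3.88 in embryo 2, 109.9 on lane plate 6 and 351.5 on lane plate 5. Lane plates 5 and 6 were high and the chimera plate and both embryos low, with nothing in between, and without lane plate 5 the pooled level was 13.6 CPM. With expression centred within plates before clustering, the most similar cluster had 10.7 CPM, and *Foxj1* was then highest, at 25.5 CPM, in cells named axial mesendoderm-like. Visceral or yolk sac endoderm-like cells had a lower level, 10.5 CPM, but a read in 39.1% of cells. They were at 20.4 CPM in embryo 4, 38.5 in embryo 5 and 2.14 on E8.5 plate 1.

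*Foxj1* levels were highest beside *Noto*, the homeobox gene of the node. The 14 cells with a *Noto* read had *Foxj1* at 209.3 CPM with a read in 50%, against 0.745 CPM and 3.33% in the others. Of the cells with *Foxj1*, 47.5% also had *Foxa2* (29 cells) and 41% had *Foxa1* (25 cells). The 29 cells fell into 3 categories, 13 visceral or yolk sac endoderm-like, 10 in the cluster led by *Cer1*, *Trh* and *Lama1* and 6 in the cluster led by *Nanog*, *Fst* and *Pou5f1*.

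Motile cilia genes were compared between cells with and without *Foxj1*. Of the 15 with a row, 14 had at least 1 CPM on either side, and 12 of them were at least 2-fold higher in the 61 cells with a *Foxj1* read, against 11% of all genes counted. Of these 12, 8 were under 1 CPM in the other cells and so were counted only through the cells in which they were high. Of the 6 with at least 1 CPM in the other cells, 4 were higher (*Dnah11*, *Rsph1*, *Rfx2* and *Rfx3*), against 7.73% of all genes counted in that way. *Pifo*, a gene of ciliary disassembly, was at 22.3 CPM against 0.505 CPM, *Cfap126* at 11.8 against 0.832 and *Tekt1*, a tektin of the axoneme, at 13.5 against 0.805. The axonemal dynein gene *Dnah5* was at 4.17 CPM against 0.406 CPM. *Ccdc39* and *Ccdc40*, the ruler proteins of the axoneme, were higher by less than the fold, at 6.52 against 3.18 CPM and 8.24 against 4.82 CPM. *Dnah9* stayed under 1 CPM on both sides and was not counted. The cells with *Foxj1* were not deeper than the others, with a median of 589775 reads against 684537.

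*Foxc1* (chr13:31806633-31812476, plus strand) had modest levels in several mesodermal categories. It was at 9.17 CPM (8.54 to 9.83) in primitive streak-like cells, which express *Mesp1*, *Mixl1* and *Lhx1*, with a read in 27.2% of them. By plate it was 6.69 CPM in embryo 1, 8.49 in embryo 2, 14.1 in embryo 4, 10.7 in embryo 5 and 10 on the chimera plate, so all 5 plates had it. Pharyngeal or cardiac mesoderm-like cells were at 6.15 CPM with a read in 28.8%. The cluster led by *Lefty2*, *Pcdh19* and *Hoxb1* had the highest pooled level, 13.1 CPM, but this rested on 1 cell of E8.5 plate 7 at 325.2 CPM, and without that plate the cluster was at 6.17 CPM. Lane plates 5 and 6 were at 7.76 and 7.24 CPM in that cluster. The levels of these 3 categories are therefore not separated by their plates.

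*Foxc2* (chr8:121116171-121118895, plus strand) reached 49.6 CPM (47.4 to 51.9) in pharyngeal or cardiac mesoderm-like cells, which express *Actc1*, *Myl7* and *Tnnt2*, and 47.5% of these cells had a read. At Leiden resolution 0.5 these cells lay in a larger cluster at 19.7 CPM. By plate, *Foxc2* in the pharyngeal or cardiac mesoderm-like class was at 24.7 CPM on lane plate 4. It was at 70 CPM on E8.5 plate 3, 66.2 on plate 4, 58 on plate 7 and 28.3 on plate 8. The cluster led by *Lefty2*, *Pcdh19* and *Hoxb1* was at 28.2 CPM, with 15.8 CPM on lane plate 5 and 38.6 CPM on lane plate 6, and its range overlaps that of the pharyngeal class. Per kilobase, *Foxc2* in the pharyngeal class was at 18.2 CPM per kb and *Foxc1* at 1.05 CPM per kb.

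Haematoendothelial-like cells, the lineage that forms vessels and blood, held 50.2% of all *Foxc2* reads and 25.3% of all *Foxc1* reads. *Foxc2* was at 16.5 CPM in the class, and its clusters differed widely. Within it, the cluster led by *Emcn*, *Gja5* and *Mmrn2*, of which *Gja5* is a connexin of arteries, had *Foxc2* at 53.7 CPM with a read in 52.3% of 65 cells, with 30.8 CPM on lane plate 2 and 52.7 CPM on E8.5 plate 3. The cluster led by *Sox7*, *Gadd45g* and *Phf6*, which also expresses *Etv2*, was at 12.5 CPM, from 0.990 CPM on lane plate 3 to 54 CPM on E8.5 plate 4. The cluster led by *Stab2* and *Lyve1* was at 1.93 CPM and the cluster led by *Tie1* and *Esam* at 0.953 CPM. *Foxc1* in haematoendothelial-like cells was at 2.46 CPM with a read in 8.97%.

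*Foxc1* and *Foxc2* were found together in 42 cells, 38.5% of those with *Foxc1* and 27.3% of those with *Foxc2*. Of these, 14 were pharyngeal or cardiac mesoderm-like, 10 haematoendothelial-like and 10 in the cluster led by *Lefty2*, *Pcdh19* and *Hoxb1*. Among 10 genes of paraxial and head mesoderm, 9 were at least 2-fold higher in cells with *Foxc1*, against 3.34% of all genes counted, and 8 in cells with *Foxc2*, against 5.23%. Of the list genes with at least 1 CPM in the other cells, 8 of 9 were higher for *Foxc1*, against 2.36% of all genes so counted, and 6 of 8 for *Foxc2*, against 4.22%. *Tbx1*, a factor of pharyngeal mesoderm, was at 22.7 CPM in cells with *Foxc1* and 2.43 CPM in cells without, and at 25.5 and 1.83 CPM for *Foxc2*. *Meox1*, a somite gene, was at 26.6 CPM in cells with *Foxc2* and 1.02 CPM in cells without. *Msgn1*, a presomitic gene, was at 29.7 against 8.94 CPM for *Foxc1* and at 5.82 against 10.5 CPM for *Foxc2*.

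Of 8 endothelial genes, 7 were at least 2-fold higher in cells with *Foxc2*, against 5.23% of all genes counted, and 1 in cells with *Foxc1*, against 3.34%, the latter being *Etv2*, an early factor of the endothelial and blood lineage. *Kdr*, the VEGF receptor, was at 863.2 CPM in cells with *Foxc2* against 277.2 CPM, and *Cdh5*, the endothelial cadherin, at 209.03 against 48.6 CPM. For *Foxc1* the same genes were at 532.3 against 308.4 CPM and at 67.1 against 60.3 CPM. *Tal1*, a blood and endothelial factor, was at 29.8 CPM in cells with *Foxc1* and 73.1 CPM in cells without, the only gene of the list at least 2-fold lower. A *Kdr* read was found in 81.8% of the cells with *Foxc2* and in 69.7% of those with *Foxc1*. The difference between the paralogues was not tested, since the cells of both sets overlap and cells are not replicates.

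*Foxf1* and *Foxc2* lie near each other on the same chromosome, and both overlap the annotated gene Gm20388 on the same strand, so reads assigned to that gene instead cannot be told from these counts. *Foxf1* (chr8:121084386-121088144, plus strand) had the most reads of the 8 genes, 20991, and extraembryonic mesoderm or allantois-like cells held 70.4% of them. Its level in that class was 65.9 CPM (64.8 to 67) with a read in 78.2% of 220 cells. With expression centred within plates no category matched this class closely, and *Foxf1* was highest in caudal epiblast or neuromesodermal progenitor-like cells, at 48.9 CPM. By plate, *Foxf1* in the extraembryonic mesoderm or allantois-like class was lowest on lane plate 6 (37.5 CPM) and highest on E8.5 plate 8 (116.3 CPM). It was at 65.9 CPM in embryo 1, 70.7 in embryo 2, 93.6 in embryo 4 and 97.9 in embryo 5. The class was on 11 plates with at least 5 such cells, and *Foxf1* was high on all of them. Within the class, a cluster led by the matrix genes *Postn*, *Lum* and *Col3a1* had *Foxf1* in 21 of 21 cells at 130.6 CPM, against 66.6 CPM in the cluster led by *Tbx4* and *Pitx1*, allantois and hindlimb genes, and 58.1 CPM in the cluster led by *Tbx3* and *Fbln2*. The first of these was at 64.3 CPM on lane plate 4 and 154.8 CPM on E8.5 plate 8.

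Outside the extraembryonic mesoderm, *Foxf1* was at 49.1 CPM with a read in 51.9% of caudal epiblast or neuromesodermal progenitor-like cells, which express *Cdx2* and *Cdx4*. Their plates were at 64 CPM on lane plate 2, 27.4 on lane plate 4, 87.7 on E8.5 plate 7 and 38.3 on E8.5 plate 8. These values overlap the plates of the leading class. Of the 54 cells, 28 had *Foxf1*, 18 had *Foxb1* and 0 had both, so the class name need not hold for the cells with *Foxf1*. Lower levels followed, with the cluster led by *Lefty2*, *Pcdh19* and *Hoxb1* at 18.9 CPM, pharyngeal or cardiac mesoderm-like cells at 17.4 CPM and primitive streak-like cells at 13.4 CPM. Haematoendothelial-like cells were at 6.31 CPM, and among them the cluster led by *Stab2* and *Lyve1*, genes of scavenging and lymphatic endothelium, stood highest at 20.2 CPM with a read in 45.2% of cells. That cluster is one where *Foxc2* was low. The plates of this cluster were at 10.3 CPM on lane plate 1, 24.8 on lane plate 2 and 28.9 on E8.5 plate 3.

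All 10 genes of the lateral and extraembryonic mesoderm list were at least 2-fold higher in cells with a *Foxf1* read, against 4.94% of all genes counted, as were all 9 with at least 1 CPM in the other cells, against 3.91%. *Postn* was at 126.7 CPM against 1.37 CPM, *Hand1*, a factor of extraembryonic mesoderm and heart, at 196.97 against 18.9 CPM, and *Bmp4*, a ligand of the same tissue, at 179.9 against 32 CPM. The Hedgehog targets *Gli1* and *Ptch1* were at 6.17 against 2.14 CPM and at 140.2 against 53 CPM. In cells with a *Hand1* read, *Foxf1* was at 46.1 CPM, against 3.94 CPM in the others. *Foxf1* shared 40 cells with *Foxc2* (26% of the *Foxc2* cells and 12.2% of its own) and 22 with *Foxc1* (20.2% and 6.73%). The share of *Foxc1* cells with *Foxf1*, 20.2%, is close to the 20% of cells without *Foxc1* that had *Foxf1*.

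*Foxd3* (chr4:99656299-99658622, plus strand) was the rarest of the 8, with a read in 1.96% of cells. It was found almost wholly in 2 categories of E7.5, epiblast-like cells at 3.83 CPM (3.46 to 4.23) with 73.5% of its reads and the cluster led by *Nanog*, *Fst* and *Pou5f1* at 2.08 CPM with 24.1%. The remaining 13 reads were in neural ectoderm-like cells. Epiblast-like cells were at 5.93 CPM in embryo 1, 4.35 in embryo 2, 0.640 in embryo 4, 5.42 on the chimera plate, 8.62 on lane plate 4, 2.1 on lane plate 5 and 0.0584 on lane plate 6. Embryo 4 and lane plate 6 were low, and the other 5 plates ran from 2.1 to 8.62 CPM. Of the 2 clusters in the class, the one led by *Slc7a3* and *Utf1* was at 4.86 CPM with a read in 26.3% of 80 cells, and the one led by B230312C02Rik, *Pim2* and *Sp8* at 1.52 CPM with a read in 5.45% of 55 cells.

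Of the 32 cells with *Foxd3*, 96.9% had a read of *Pou5f1*, the core pluripotency factor, 71.9% of *Sox2* and 65.6% of *Nanog*. Of the 8 genes in the pluripotency and neural crest list, 5 were at least 2-fold higher in these cells, against 8.10% of all genes counted. All 8 had at least 1 CPM in the other cells, and 5.81% of all genes of that kind were higher. Among them were *Pou5f1* (837.9 against 109.2 CPM), *Utf1* (432.7 against 38.5 CPM), *Nanog* (63.7 against 13 CPM) and *Sox2* (21.8 against 5.28 CPM). The neural crest gene *Sox10* was at 1.80 CPM against 1.82 CPM, and *Pax3* at 3.64 against 3.52 CPM. Cells with *Foxd3* were deeper than the others, with a median of 878352 reads against 670834, and the part of depth in these ratios was not tested.

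*Foxb1* (chr9:69757710-69760940, minus strand) was highest in neural ectoderm-like cells, at 58.5 CPM (56.2 to 60.9) with a read in 62%. The name is not stable, because with expression centred within plates nearly the same cells (58.1 CPM) were named axial mesendoderm-like. By plate, *Foxb1* in the neural ectoderm-like class was at 48.2 CPM on lane plate 4, 34.1 on E8.5 plate 7 and 142.04 on E8.5 plate 8. Plate 8 was thus far above the others. Caudal epiblast or neuromesodermal progenitor-like cells were at 28.4 CPM with a read in 33.3%, with 0 CPM on lane plate 2, 30.3 on lane plate 4, 11.1 on E8.5 plate 7 and 36.9 on E8.5 plate 8. The cluster led by *Lefty2*, *Pcdh19* and *Hoxb1* was at 25.1 CPM with a read in 41.5%, and lane plates 5 and 6 were at 23.3 and 32.1 CPM in it. The ranges of the neural and caudal plates overlap. An opposite-strand gene, B230323A14Rik, overlaps *Foxb1*, and 11.9% of its 75-base stretches also occur there. Whether counting used the strand is not stated, so part of the *Foxb1* reads may belong to that gene.

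The clusters named epiblast-like differed in *Foxb1*. In the cluster led by B230312C02Rik, *Pim2* and *Sp8* it was at 13.7 CPM with a read in 30.9% of 55 cells, and in the cluster led by *Slc7a3* and *Utf1* at 0.0715 CPM. The first cluster lay mainly on lane plates 5 and 6, at 30.8 and 18.3 CPM, and was at 0 CPM in its 5 cells of lane plate 4, so cluster and plate cannot be told apart. That cluster matched 5 of 7 epiblast markers. Its leading genes include *Nkx1-2*, which is on the caudal epiblast or neuromesodermal progenitor list, so its name is not settled. In caudal epiblast or neuromesodermal progenitor-like cells, 28 cells had *Foxf1* and 18 had *Foxb1*, and 0 of 54 had both.

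Of the 8 neural genes, 6 were at least 2-fold higher in cells with *Foxb1*, against 7.87% of all genes counted, and so were 5 of the 7 with at least 1 CPM in the other cells, against 5.38%. *Nkx1-2*, a gene of the caudal neural plate and its progenitors, was at 99.2 CPM against 6.28 CPM, *Pax6* at 24.7 against 3.36 CPM, *Hes5*, a Notch target of neural progenitors, at 13.7 against 1.00 CPM, and *Sox1* at 6.01 against 0.238 CPM. *Zic2* and *Otx2* missed the fold, at 27.8 against 17.3 CPM and 64.6 against 44.4 CPM. In the 28 cells with a *Sox1* read, *Foxb1* was at 78.8 CPM and found in 64.3%, against 2.72 CPM and 6.48% elsewhere. The median depth of cells with and without a read was 581060 and 688300 reads for *Foxb1*, and for the other genes compared in this way the cells with a read had medians from 550012 (*Foxc2*) to 878352 (*Foxd3*). *Foxb1* was also found in 15.6% of cells with a read of *T*, the caudal mesoderm factor, and in 4.13% of cells without.

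**Figure D2:**
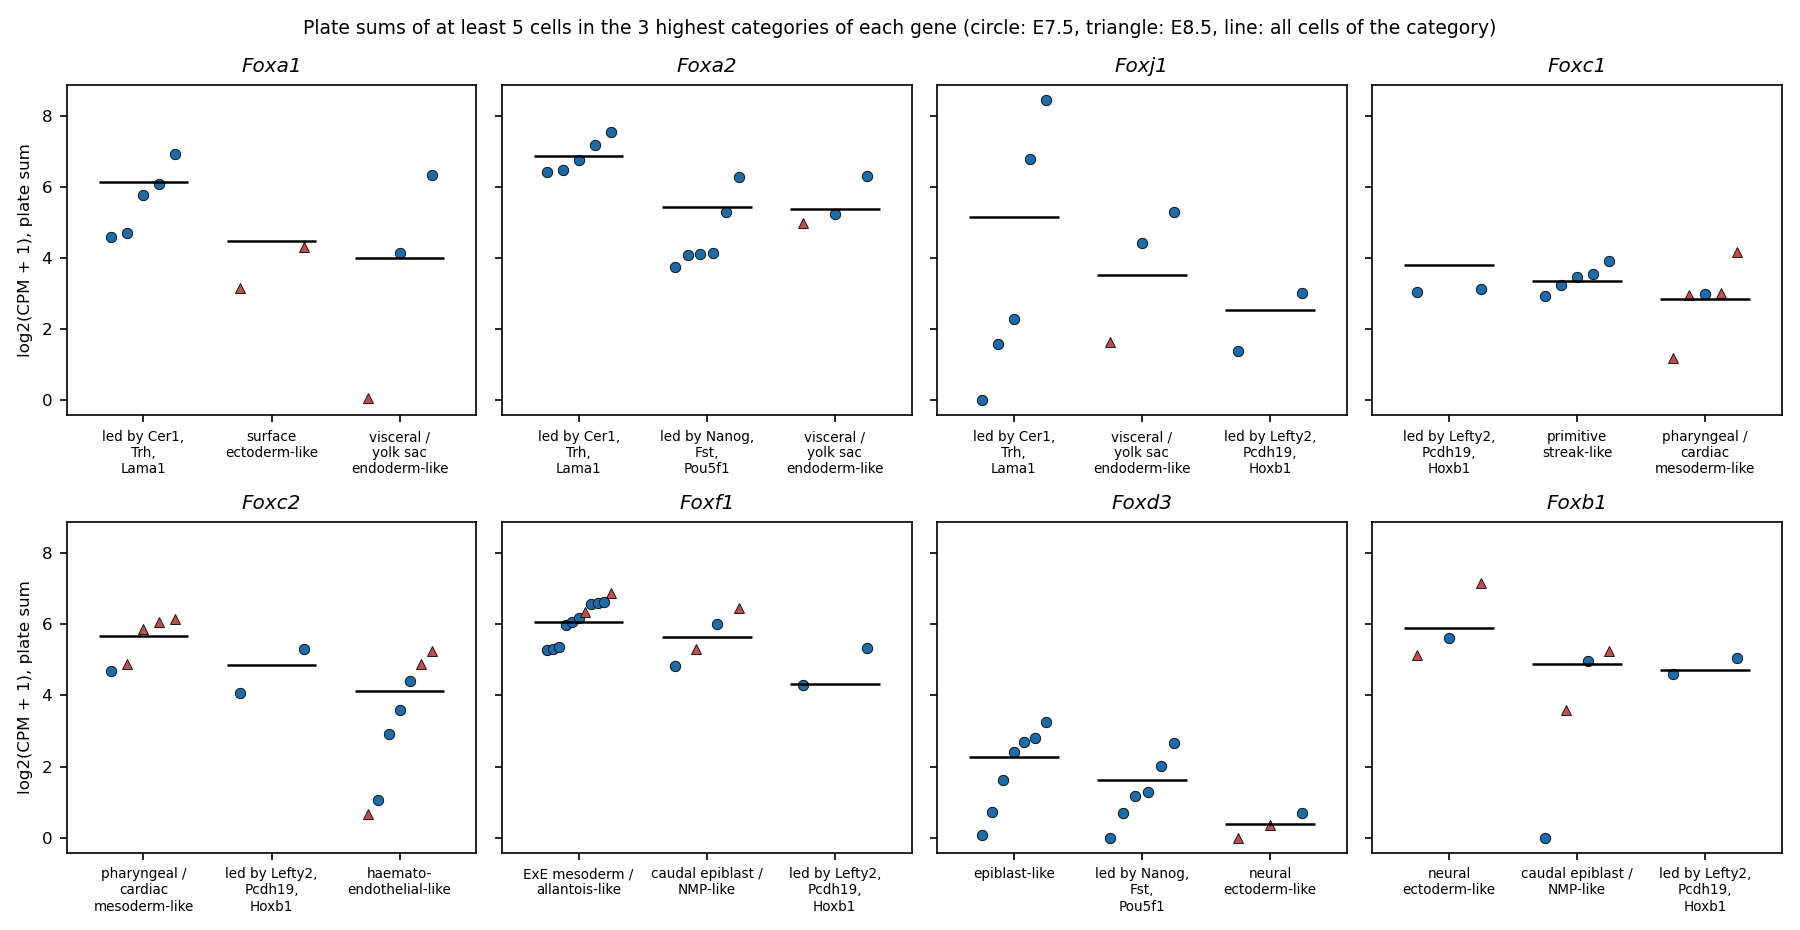
Each point is the log2(CPM + 1) of 1 plate in 1 of the 3 categories where the gene was highest (circles E7.5, triangles E8.5, plates with at least 5 cells of the category), and lines give the level over all cells of the category. The points of *Foxa2* in the cluster led by *Cer1* lie above all its others, whereas *Foxj1* spreads from 0 to 351.5 CPM within that cluster.

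Beyond the markers chosen for each gene, the genes most alike in pattern were ranked by Pearson correlation of log2(CPM + 1) over 73 sums of a category on a plate, among 13916 genes. These sums share plates and classes, so the coefficients are descriptions. *Foxa1* and *Foxa2* were each other's closest gene (r = 0.83), as were *Foxc1* and *Foxc2* (r = 0.80). After these came *Ttc6* (0.76) and *Gpx2* (0.72) for *Foxa1*, *Chrna9* (0.76) and *Chrd* (0.73) for *Foxa2*, the myosin light chain gene *Myl1* (0.66) and *Chst2* (0.63) for *Foxc1*, and *Myrfl* (0.66) and the myosin gene *Myl4* (0.65) for *Foxc2*. *Foxf1* was nearest to *Fendrr* (0.89), a long noncoding RNA gene that lies beside it, *Hand2* (0.87) and *Hand2os1* (0.86). *Foxj1* was nearest to *Ube2u* (0.81), *Noto* (0.79) and the cilium gene *Enkur* (0.79). *Foxd3* was nearest to *Hrk* (0.84), *Pcsk2os1* (0.84) and *Trp73* (0.82), and *Foxb1* to *Hes3* (0.76), *Wnt3a* (0.70) and *Apba2* (0.68).

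**Figure D3:**
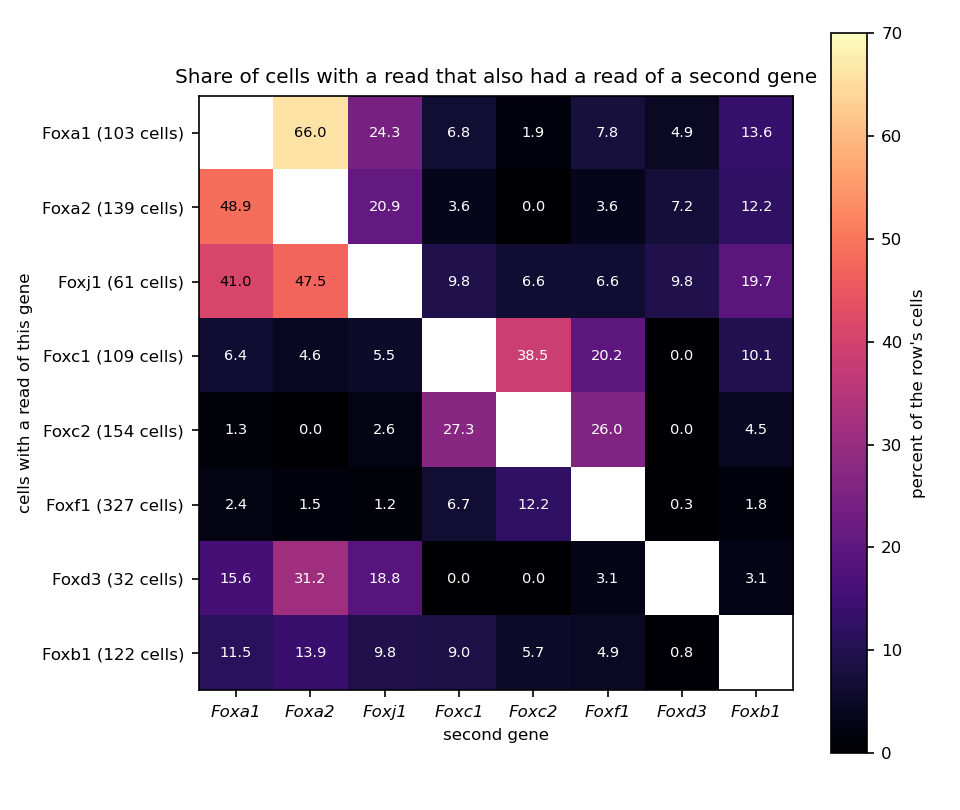
Rows are the thinned cells with a read of 1 gene and columns the percentage of them that also had a read of a second gene. The brightest fields are *Foxa1* with *Foxa2* (66% and 48.9%), *Foxj1* with *Foxa2* and *Foxa1* (47.5% and 41%) and *Foxc1* with *Foxc2* (38.5%).

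Pairs of a FOXA gene with a mesodermal gene differed. *Foxa2* and *Foxc2* shared 0 cells after thinning and 4 with all reads, and *Foxa1* and *Foxc2* shared 2 after thinning. *Foxa1* and *Foxc1* shared 7 cells, 6.80% of the *Foxa1* cells, close to the 6.66% of cells without *Foxa1* that had *Foxc1*. *Foxf1* was found in 7.77% of *Foxa1* cells and 20.8% of cells without *Foxa1*. *Foxd3* shared 0 cells with *Foxc1* and 0 with *Foxc2* after thinning, and 2 cells with each with all reads. *Foxd3* did share 10 of its 32 cells with *Foxa2* (31.3%), 6 of them in the cluster led by *Nanog*, *Fst* and *Pou5f1*. *Foxa2* and *Foxb1* were found together in 17 cells, 7 of them neural ectoderm-like and 7 in the cluster led by *Cer1*, *Trh* and *Lama1*. Detection is sparse, and cells without a read of a gene cannot be read as lacking it.

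The stages were then compared by pooled level, with the plates as spread. *Foxa1* stood at 5.38 CPM (5.22 to 5.54) in the E7.5 pool against 1.83 CPM (1.71 to 1.95) in the E8.5 pool, a log2 ratio (pseudocount 1 CPM) of -1.17, and *Foxa2* at 10.1 and 3.72 CPM (-1.24). *Foxj1* was at 2.41 and 0.146 CPM (-1.57). All 3 were lower at E8.5 in the pool. In the other direction, *Foxc2* was at 4.10 and 9.63 CPM (1.06) and *Foxb1* at 2.64 and 6.55 CPM (1.05). *Foxc1* was at 1.65 and 2.1 CPM (0.23), and *Foxf1* at 15.9 and 15.2 CPM (-0.06). *Foxd3* was at 0.620 CPM at E7.5 and 0.01 CPM at E8.5, where 5 reads lay in 1 cell of plate 7.

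For all 8 genes the plates of both stages overlapped. *Foxc2* ran from 0.460 to 19.1 CPM over the E7.5 plates and from 0.00951 to 39.4 CPM over the E8.5 plates, of which plates 3, 4, 7 and 8 were above 10 CPM and the other 4 under 1 CPM. *Foxf1* ran from 0.971 to 22.1 CPM and from 0 to 49.6 CPM. *Foxb1* was above 10 CPM on lane plates 4, 5 and 6 and on E8.5 plates 7 and 8, and under 3 CPM on the other 14. *Foxj1* was at 55.7 CPM on lane plate 5, at 9.22 CPM on lane plate 6 and at 5.23 CPM or less on the other 9 E7.5 plates, and at 0.456 CPM or less on all E8.5 plates. Because classes were unevenly spread over plates, stage, class and plate cannot be told apart in these ratios.

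Of the 7 genes that reached 1 CPM in 1 or both stages, 2 had a log2 ratio of at least 1 and 3 of at most -1, and *Foxd3* was under the minimum. Of all 15328 genes so counted, 7.49% were higher and 9.35% lower. The median ratio was -0.06 for the 7 genes and 0.05 for all. Single plates carried several of these values. Without E8.5 plate 8 the ratio of *Foxb1* was 0.13, without E8.5 plate 3 that of *Foxc2* was 0.37, and without embryo 2 that of *Foxa1* was -0.87. Without E8.5 plate 7 the ratio of *Foxa1* was -2.01. With any 1 plate left out, *Foxa2* stayed between -1.51 and -1.06 and *Foxj1* between -1.81 and -1.15.

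**Figure D4:**
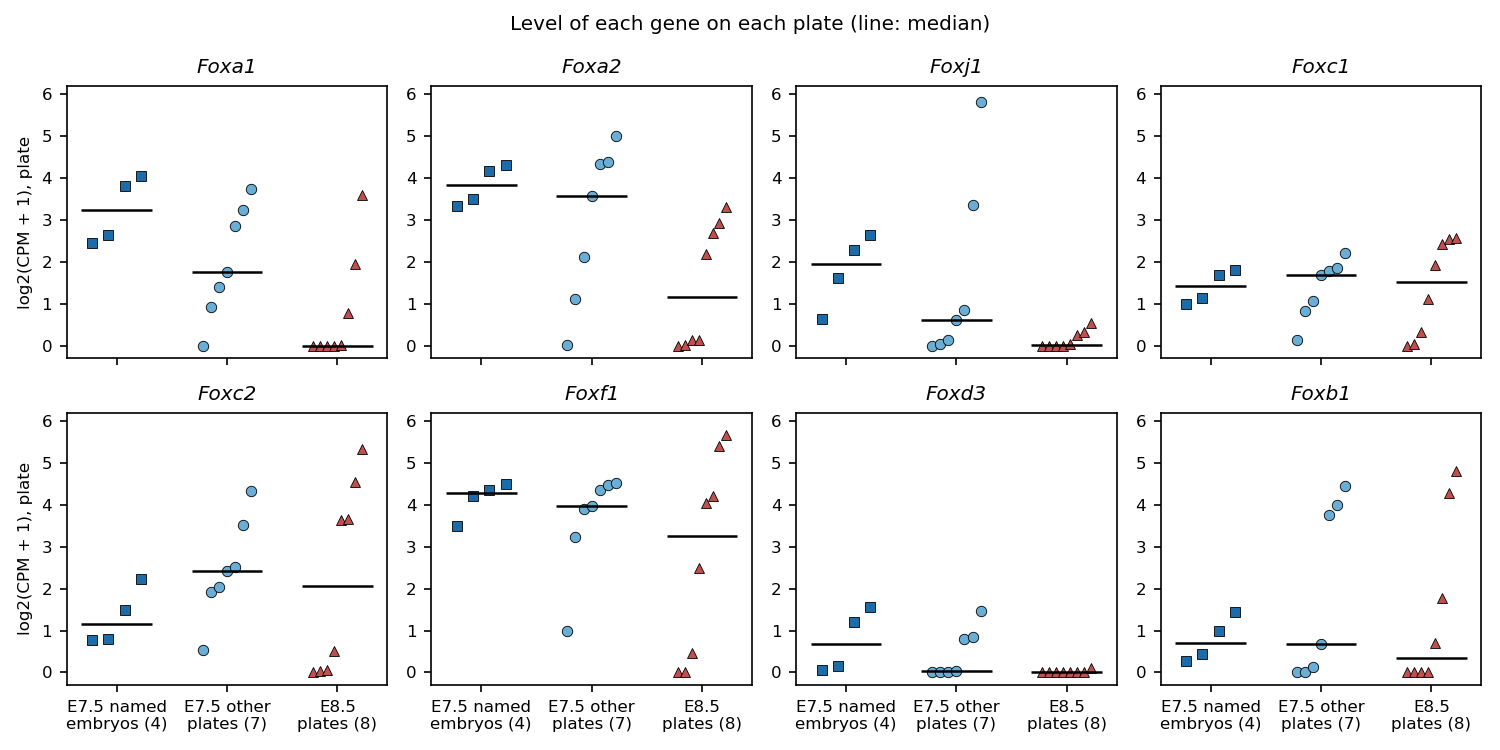
Each point is the log2(CPM + 1) of 1 gene on 1 plate, for the 4 plates of named embryos, the 7 other E7.5 plates and the 8 E8.5 plates, with lines at the medians. The stages overlap for every gene, and E8.5 plates split into some near 0 and some high for *Foxc2*, *Foxf1* and *Foxb1*.

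Shares of cells with a read did not follow the levels for every gene. From E7.5 to E8.5 the thinned share was 8.89% and 2.76% for *Foxa1*, 11.7% and 4.06% for *Foxa2*, 6.03% and 0.581% for *Foxj1*, and 7.41% and 12.2% for *Foxc2*. It was 6.67% and 6.68% for *Foxc1*, 22.4% and 16.7% for *Foxf1*, and 8.15% and 6.53% for *Foxb1*. *Foxb1* thus had a higher pooled level at E8.5 but a lower share, and *Foxf1* a lower share at nearly the same level. *Foxd3* was found in 3.39% of E7.5 cells and in 0 of the E8.5 cells, with an upper limit of 0.534%.

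The mesodermal genes were also set side by side within the classes present at both stages. *Foxf1* in extraembryonic mesoderm or allantois-like cells was at 56.9 CPM in E7.5 cells and 105.6 CPM in 56 E8.5 cells, and *Foxc2* at 0.285 and 5.96 CPM. *Foxc1* was low there, at 0.624 CPM (0.515 to 0.749) at E7.5 and 0.313 CPM (0.167 to 0.536) at E8.5 from 13 reads. These intervals overlap, so no direction is given. In haematoendothelial-like cells, *Foxc2* was at 12.5 and 21.3 CPM, *Foxc1* at 1.32 and 3.82 CPM and *Foxf1* at 4.80 and 8.11 CPM, although its share of cells was 16.8% and 15.9%. The clusters holding these cells differed by stage, so these are values without a test.

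One test with replicates was run, of primitive streak-like against epiblast-like cells in embryos 1, 2 and 4, which had at least 5 cells of both (22 and 20, 22 and 28, 5 and 6). Other pairs of classes with as many cells in these embryos, such as those with extraembryonic mesoderm or allantois-like cells, were not tested. Because *Mesp1* led the primitive streak-like cluster, its cells may include nascent mesoderm, and the test cannot tell streak from nascent mesoderm. The unnamed cluster led by *Nanog*, *Fst* and *Pou5f1*, which matched as many primitive streak markers, was not part of the streak-like sums. In that cluster *Foxd3* was at 0.621 CPM in embryo 1 and 5.31 in embryo 2, and *Foxa2* at 15.9 and 38.4 CPM. *Foxc1* was at 6.69, 8.49 and 14.1 CPM in the streak-like sums of embryos 1, 2 and 4 and at 0.214, 0.544 and 0 CPM in the epiblast-like sums. *Foxc2* was at 1.77, 6.96 and 40 CPM against 0, 0.399 and 0 CPM. *Foxf1* was at 6.92, 14 and 18 CPM against 0.0715, 1.56 and 0 CPM. The streak-like sums of all 3 genes were above the epiblast-like sums in 3 of 3 embryos, and their ranges did not overlap. *Foxd3* had 0 reads in every streak-like sum and 5.93, 4.35 and 0.640 CPM in the epiblast-like ones, so it was at least 66.6-fold higher in epiblast-like cells against a floor of 3 reads over the group. This bound covers counting error only. It was 34.6-fold without embryo 1 and 36.5-fold without embryo 2, and embryo 4 had only 2 *Foxd3* reads.

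None of the 6 genes that could be tested was called by edgeR's quasi-likelihood test blocked by embryo, which required a 1% false discovery rate plus a log2 fold change beyond 1 in size and called 0.309% of 14218 genes up and 0.134% down. Log2 fold changes are given with an SE and the Benjamini-Hochberg adjusted p from this edgeR test. The SE was derived as the size of the log2 fold change over the square root of the F statistic. The values were 5.08 ± 1.18 (adjusted p = 0.116) for *Foxc1*, 5.97 ± 1.38 (0.113) for *Foxc2* and 5.31 ± 1.33 (0.135) for *Foxf1*. For *Foxd3* the adjusted p in edgeR was 0.169. *Foxa2* was at 0.390 CPM in all streak-like and 1.68 CPM in all epiblast-like cells, and *Foxj1* at 0.275 and 3.24 CPM. Their log2 fold changes were -3.51 ± 1.89 and -2.76 ± 2.1, with adjusted p of 0.445 and 0.604 in edgeR. In single embryos these rest on few reads, as *Foxj1* had 1 read in either sum of embryo 1 and *Foxa2* had 0 against 1 in embryo 4. *Foxa1* and *Foxb1* had too few reads to enter.

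At an unadjusted p under 0.05, 4 of the 6 genes (*Foxc1*, *Foxc2*, *Foxf1* and *Foxd3*) passed, beside 16.1% of all genes tested with edgeR. DESeq2 with the same block called *Foxc1*, *Foxc2* and *Foxf1* up, beside 3.36% of genes, and *Foxd3* down, beside 4.73%, with adjusted p of 0.000103, 1.97e-05, 0.000167 and 0.00438. The calls on these 4 genes thus rest on the tool. The classes were formed from other genes of the same cells, so the p-values do not account for that choice. Of the lists, edgeR called 2 of 6 paraxial and head mesoderm genes tested up (*Mesp1* and *Dll1*), 2 of 7 node, notochord and endoderm genes (*Lhx1* and *T*), 2 of 7 lateral and extraembryonic mesoderm genes (*Gata6* and *Wnt2*) and 1 of 3 endothelial genes (*Kdr*). It called *Utf1* down of 5 pluripotency and neural crest genes, and 0 of 10 motile cilia genes and 0 of 6 neural genes either way. The list genes helped to form the classes, so these counts are descriptions.

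**Figure D5:**
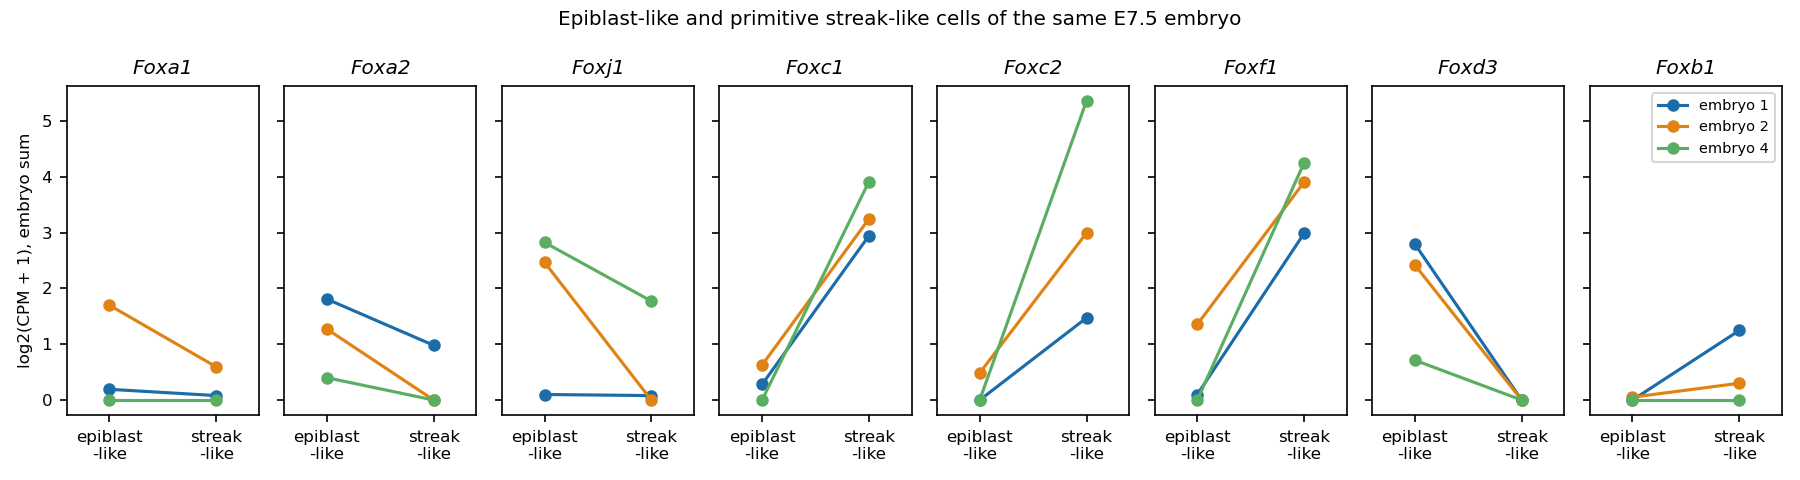
Lines join the log2(CPM + 1) of epiblast-like and primitive streak-like sums of the same E7.5 embryo for each gene (3 embryos). The lines of *Foxc1*, *Foxc2* and *Foxf1* rise and those of *Foxd3* fall to 0 in all 3 embryos.

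The other 36 forkhead genes give the setting. Several were far more widely detected than the 8, such as *Foxn3* (81.9% of cells), *Foxh1*, the Nodal pathway partner of SMAD proteins (70.7%), *Foxn2* (69.5%) and *Foxo4* (62.5%). *Foxh1* was at 207.3 CPM at E7.5 and 95.5 CPM at E8.5. Of the 21 that reached 1 CPM in 1 or both stages, 1 (*Foxi2*, 0.238 and 6.65 CPM) had a log2 ratio of at least 1 and 2 (*Foxh1* and *Foxq1*) of at most -1, with a median of -0.02. The remaining FOXA gene, *Foxa3*, was at 1.26 and 1.42 CPM with a read in 4.28% of cells, and *Foxf2*, the paralogue of *Foxf1*, at 1.45 and 2.27 CPM with a read in 4.47%. These genes were named after their values were seen.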

How the data were processed

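Single cells had been sequenced with Smart-seq2 (75-base single-end reads, no molecular identifiers) as the RNA part of a multi-omic protocol. The authors aligned reads to GRCm38 with HISAT2 2.1.0 and counted them over Ensembl genes with featureCounts, and the deposited table holds raw read counts per gene and cell, not normalized. Strand and multi-mapping settings are not given in the sources used here. Identifiers were paired with symbols for 55141 of 55487 genes, and rows without a symbol held 0.012% of reads.

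Of 1824 cells, 190 were left out (175 under 100000 reads and 15 with more than 20% of reads in ribosomal protein genes, while 0 exceeded 10% mitochondrial reads). CPM was computed from summed counts over all genes. For detection each cell was thinned once to 100000 reads. Poisson and Clopper-Pearson intervals are exact and cover counting error only, and a count of 0 was bounded by 3 counts. Cells were clustered with scanpy 1.11.5 (2000 variable genes, 30 components, 15 neighbours, Leiden resolution 1), with forkhead genes left out. A name needed at least 3 markers in at least 25% of cells and at least 2-fold higher. No doublet caller was run. Genes with at least 1 CPM on either side were counted in pooled ratios (pseudocount 1 CPM), and, as an alternative chosen after seeing the data, those with at least 1 CPM in cells without the read. Counts summed by embryo and class were tested with edgeR 4.0.16 (R 4.3.3, quasi-likelihood, Benjamini-Hochberg, embryo as a block) and, as an alternative, DESeq2 1.42.0. The testing step was first tested on simulated data. It called 21 of 100 genes changed by a log2 fold of 1.5 and 51 of 100 changed by 3, so a gene not called cannot be read as unchanged.

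The genes named are the 8 forkhead genes, their partner markers and lists, and the 3 genes most alike to each (symbols starting with Gm or ending in Rik passed over). Values are given for some of the list genes only. The 8 genes and the lists were chosen with earlier results of these data known. Alternatives were the normalization, low-count filter, pseudocount, thinning, clustering, test, replicate block and leaving out each plate or embryo.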

Additional observations from a re-analysis of the deposited data

Results flagged for a closer look

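In 31 groups of 4 to 10 plates or embryos, 3 had a highest value whose gap to the next one was wide for the range of the group. By chance, about 1 in 20 groups of alike, normally spread values would pass this limit. The plates hold different mixes of cells and many values are 0 or close to it, so that rate does not apply here. *Foxa1* was at 11.1 CPM on E8.5 plate 7, the next of the 8 E8.5 plates being at 2.86 CPM and the lowest at 0. That plate held 71.9% of the E8.5 *Foxa1* reads. *Foxd3* was at 0.0849 CPM on the same plate, from 5 reads in 1 cell, and at 0 on the other 7, so its gap is the whole range. *Foxj1* was found in 3.26% of the cells of E8.5 plate 1, the plate with most of the E8.5 visceral or yolk sac endoderm-like cells, the next plate being at 1.14%.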

How the results depend on the processing

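Within embryos, 63 genes (0.443% of those tested) were called between primitive streak-like and epiblast-like cells. With no replicate block the share was 1.18% (89 genes higher and 79 lower), with DESeq2 8.10%, with no filter on low counts 0.760%, and with Leiden resolution 2 it was 0.849% (68 and 59). Leaving out 1 embryo gave 0% (without embryo 2) to 0.431%. Of the forkhead genes, 4 were called by DESeq2 and 0 in every other fit. Paired sums of the same embryo correlated at 0.0993, 0.0759 and 0.135 in embryos 1, 2 and 4, and the block changed no call on a forkhead gene.

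With a pseudocount of 0.1 CPM the stage ratio was -2.71 for *Foxd3* and -3.35 for *Foxj1*. Without thinning, *Foxd3* was found in 0.145% of E8.5 cells (0.134% with a minimum of 4000 reads), and 29.6% of *Foxc1* cells had *Foxf1*. For other clusterings the level was taken in the category sharing most cells with the leading one. For *Foxc1* this gave 6.67 CPM with Leiden resolution 0.5 and 5.44 CPM with expression centred within plates, where few cells were shared and its highest category was another, at 8.83 CPM. *Foxc1* was at 16.8 CPM as a mean over cells, and at 6.17 to 23.4 CPM with 1 plate left out. With Leiden resolution 0.5, *Foxc2* was at 19.7 CPM, and *Foxf1* at 43.1 CPM in a category named primitive streak-like, while its highest category kept the extraembryonic mesoderm name at 89.2 CPM. The causes were not tested. The stage ratios with 1 of the 19 plates left out all moved by less than the spread between plates. The largest shift of the median gene by another scaling was 0.0458 on the log2 scale. No ratio of at least 1 in size changed direction, but that of *Foxf1* ran from -0.73 (without E8.5 plate 8) to 0.26 (without E8.5 plate 1), and those of *Foxa1*, *Foxc2* and *Foxb1* came under 1 in size without some plates (to -0.87, 0.37 and 0.13). As a mean over the CPM of single cells the ratio of *Foxb1* was 0.60. A test of nascent mesoderm-like cells was not run, since no cluster took that name in the clustering used, and at resolution 2 the named embryos held 4, 5, 2 and 1 such cells. One cluster took the name with expression centred within plates, and it was not tested. At the depth of 100000 reads, a gene without a read in a cell cannot be called absent.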
